A study of Mus musculus with 9 samples.

Results

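Open chromatin of ER- luminal cells of the mouse mammary gland was followed from puberty through adulthood to mid pregnancy, the stages named in the design text of the series. ATAC-seq uses the Tn5 transposase to cut and tag accessible DNA, and gave 1 library of sorted ER- luminal cells at each of the 3 stages, which are 3 of the 9 libraries of the series. The other 6 are basal and ER+ luminal cells at the same stages. All 124860 regions of the table were described. The members were found by cell type label and stage, with no use of measured values. Per the labels, all groups came from mice of the genotype ERrtTA/TetOCre/rosaYFP. The labels used here state no drug, age, day of pregnancy or number of mice per library, nor do they say which surface markers or reporter defined the sorted gates.

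Luminal cells line the ducts and alveoli of the gland, inside a contractile basal layer. Those without the oestrogen receptor include the progenitors of the alveolar cells, which multiply in pregnancy and later secrete milk. Regulatory DNA that becomes accessible in such cells can be bound by transcription factors before or during that change. The table gives neither coordinates nor gene names, so regions are identified by their number, the labelled cell type could not be checked against marker genes, and no sequence is shown. Accessibility of a sorted population depends on how many of its cells are open and on how open each is, and these cannot be told apart here.

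The puberty, adult and pregnancy libraries held 8525184, 7375760 and 3418164 reads in regions. One read was worth 0.717, 0.743 and 1.52 units of the deposited signal, and the median region had 19, 20 and 10 reads. A count of 0 allows up to 3 reads, worth 2.15, 2.23 and 4.55 units. Because there was 1 library per stage, differences between stages within ER- luminal cells have no replicate check and no test. Intervals given for them are exact 95% counting intervals, which do not cover the spread between animals, and PCR copies are not independent molecules. The ER+ luminal pregnancy library, used below for comparison, had the narrowest values of the 9, with a 90th to 10th percentile ratio of 16.3 against 35 in its ER- luminal counterpart, and basal values stand beside it. Stages were compared as log2(signal + 1), on which the change of low regions is understated.

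Most of the ER- luminal landscape kept its level through the 3 stages. In 64146 regions (51.4%) the 3 libraries lay within 2-fold of each other, against 48.1% of regions in basal and 36.6% in ER+ luminal cells. A further 43934 regions (35.2%) spanned between 2-fold and 4-fold. Among the 62430 regions with a mean signal over the 9 libraries at or above the median of 17.9, 65.2% were level. Across regions (a description, since regions of 1 library are not replicates) log2 levels had a Pearson r of 0.903 between puberty and adult, 0.873 between adult and pregnancy and 0.829 between puberty and pregnancy. The stages furthest apart in the sequence were thus also the least alike.

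The most regions differed at least 4-fold between puberty and pregnancy, the stages furthest apart. From puberty to adult 2927 regions (2.34%) were higher and 1682 (1.35%) lower. From adult to pregnancy 4356 (3.49%) were higher and 1923 (1.54%) lower. From puberty to pregnancy 8208 (6.57%) were higher and 3358 (2.69%) lower. Higher regions made up 63.5%, 69.4% and 71% of these changes. This excess came from regions of low signal. At or above the median mean signal the same shares were 43%, 50.7% and 45.2%, from 456 higher and 605 lower, 578 and 561, and 1280 and 1553. Quantile normalization of the 3 libraries gave 58.9%, 42.7% and 50.5%, total scaling gave 73.9%, 69.1% and 80%, and a pseudocount of 4 gave 65%, 46.2% and 58.9%. The direction of the balance into pregnancy therefore depended on the scaling and on the weight given to low values. The median change over all regions was 0.01, 0.03 and 0.06 on the log2 scale for the 3 pairs of stages. At equal depth 7454 regions were higher and 4476 lower from puberty to adult, and 7276 and 2480 from adult to pregnancy. From puberty to pregnancy there were 12270 and 3721. Which of the steps held more changes thus depended on depth.

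Regions were then sorted into stage patterns. A stepwise pattern had a difference of at least 2-fold in the same direction at both steps. A region was set apart at 1 stage where it differed at least 4-fold in the same direction from both other stages, which lay within 2-fold of each other. In all, 7348 regions (5.88%) had such a pattern, and 9432 (7.55%) changed at least 4-fold without one. Stepwise higher regions numbered 1849 (1.48%) and stepwise lower regions 635 (0.509%). In pregnancy 1223 (0.979%) were set apart as higher and 989 (0.792%) as lower. In adults 98 (0.0785%) were set apart as higher and 619 (0.496%) as lower. At puberty 208 (0.167%) were set apart as higher and 1727 (1.38%) as lower. At these settings stepwise higher and puberty-lower regions were the most frequent, and a peak in adults was the rarest. The order changed with the setting: pregnancy-lower regions were the most frequent at or above the median mean signal, with 359 against 341 and 295, and after quantile normalization, with 1706. With a pseudocount of 4 the 162 puberty-lower regions were fewer than 178 stepwise lower and 204 pregnancy-lower ones, and adult-higher and adult-lower regions numbered 6 each.

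**Figure D1:**
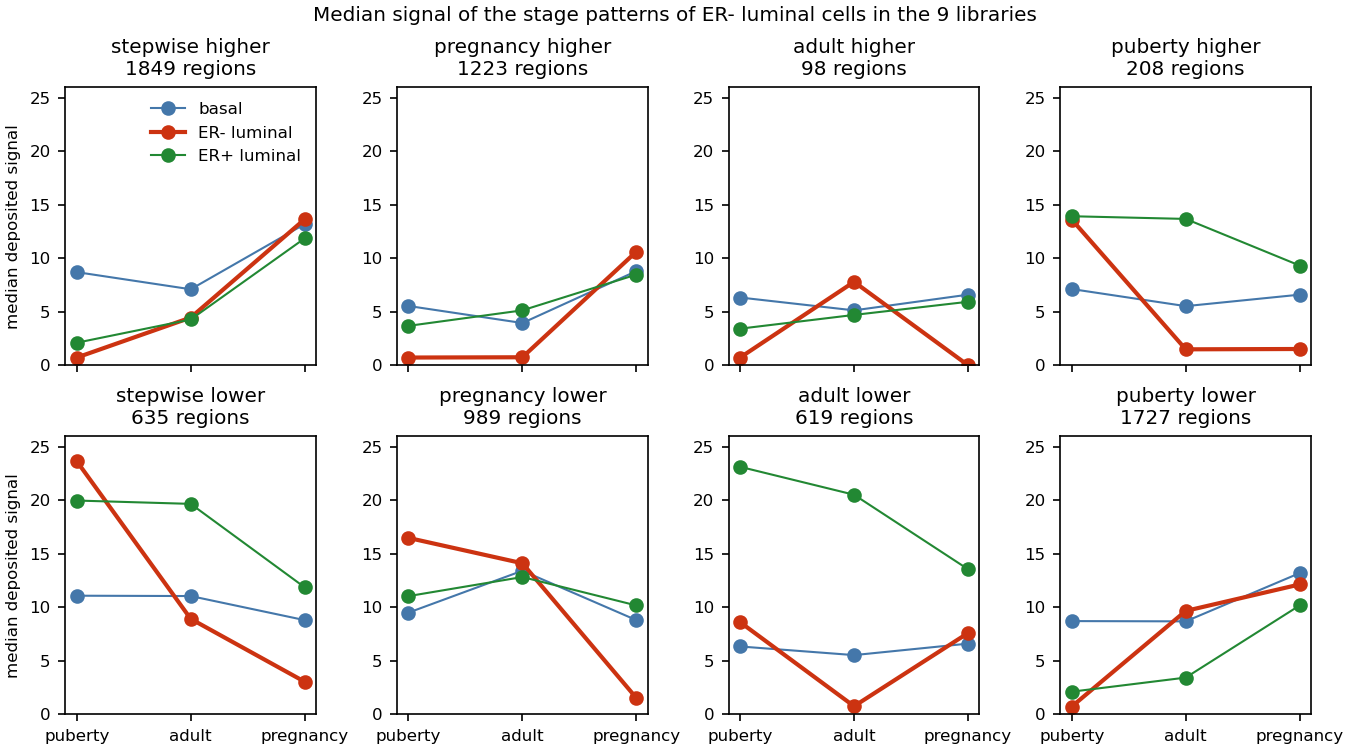
Median deposited signal (vertical axis) of the regions of each ER- luminal stage pattern at puberty, in adults and in pregnancy (horizontal axis), in 1 library per point, for ER- luminal, basal and ER+ luminal cells. The ER- luminal lines have the shape that defined each class; the adult-lower regions had medians of 23.1, 20.5 and 13.6 in ER+ luminal cells.

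The stepwise higher regions had almost no signal at puberty. Their stage medians were 0.717, 4.46 and 13.7, which is 1, 6 and 9 reads. The class used these values, so they are a description. The libraries of the other cell types played no part in the choice. The same regions in ER+ luminal cells also had successively higher medians, 2.1, 4.28 and 11.9, and in basal cells they had 8.71, 7.1 and 13.2. Of the 1849, 256 (13.8%) had the stepwise higher pattern in ER+ luminal cells too, where 3% of all regions had it. These 256 were 6.84% of the ER+ luminal list. In basal cells 24 (1.3%) had it, against 0.782% of all regions. At puberty 803 (43.4%) were at least 4-fold higher in basal than in ER+ luminal cells, against 15.5% of all regions. The other way went 107 (5.79%), against 13.9%. In the adult libraries 32.5% were at least 4-fold higher in basal cells, against 16.5% of all regions. There 17.4% went the other way, near the 17.9% of all regions. In 259 of the 1849 (14%) neither other cell type was 2-fold higher at either step, which 47.8% of all regions met.

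Region merged55563 led the stepwise higher class by the rule for named regions. It had 0 reads at puberty, a signal of 4.46 from 6 reads in adults and 30.3 from 20 reads in pregnancy. Pregnancy was 6.81 times the adult value, with a counting interval of 2.64 to 20.7. It was 14.1-fold above puberty if 0 reads are taken as 3, with a counting interval from 10.4 upwards. In basal and ER+ luminal cells it lay between 0 and 7.12 in all 6 libraries. The pregnancy library of ER- luminal cells thus stood above the other 8.

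Stepwise lower regions were brighter than stepwise higher ones: 51.3% against 81.6% lay under the median mean signal. The 635 stepwise lower regions had medians of 23.7, 8.91 and 3.03 in the puberty, adult and pregnancy libraries, or 33, 12 and 2 reads. In basal cells their medians were 11.1, 11.0 and 8.8, and in ER+ luminal cells 20.0, 19.7 and 11.9. The pattern recurred in ER+ luminal cells for 18 (2.83%), against 0.557% of all regions, and in basal cells for 4 (0.63%), against 0.32%. They were 2.59% and 1% of the lists of those cell types. At puberty 202 (31.8%) were at least 4-fold higher in ER+ luminal than in basal cells, against 13.9% of all regions, and 41 (6.46%) went the other way, against 15.5%. In 164 of the 635 (25.8%) neither other cell type was 2-fold lower at either step, which 53.4% of all regions met.

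Region merged100542 led this class, with a signal of 176 from 246 reads at puberty, 23.8 from 32 reads in adults and 3.03 from 2 reads in pregnancy. The puberty value was 7.42 times the adult value (counting interval 5.12 to 11.1), and the adult value 7.84 times the pregnancy value (2.0 to 67.5). ER+ luminal cells had 80.5, 54.7 and 10.2 there, also in descending order, and basal cells 10.3, 11.8 and 11.0. It was therefore near level in basal cells and lower at each later stage in both luminal types.

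**Figure D2:**
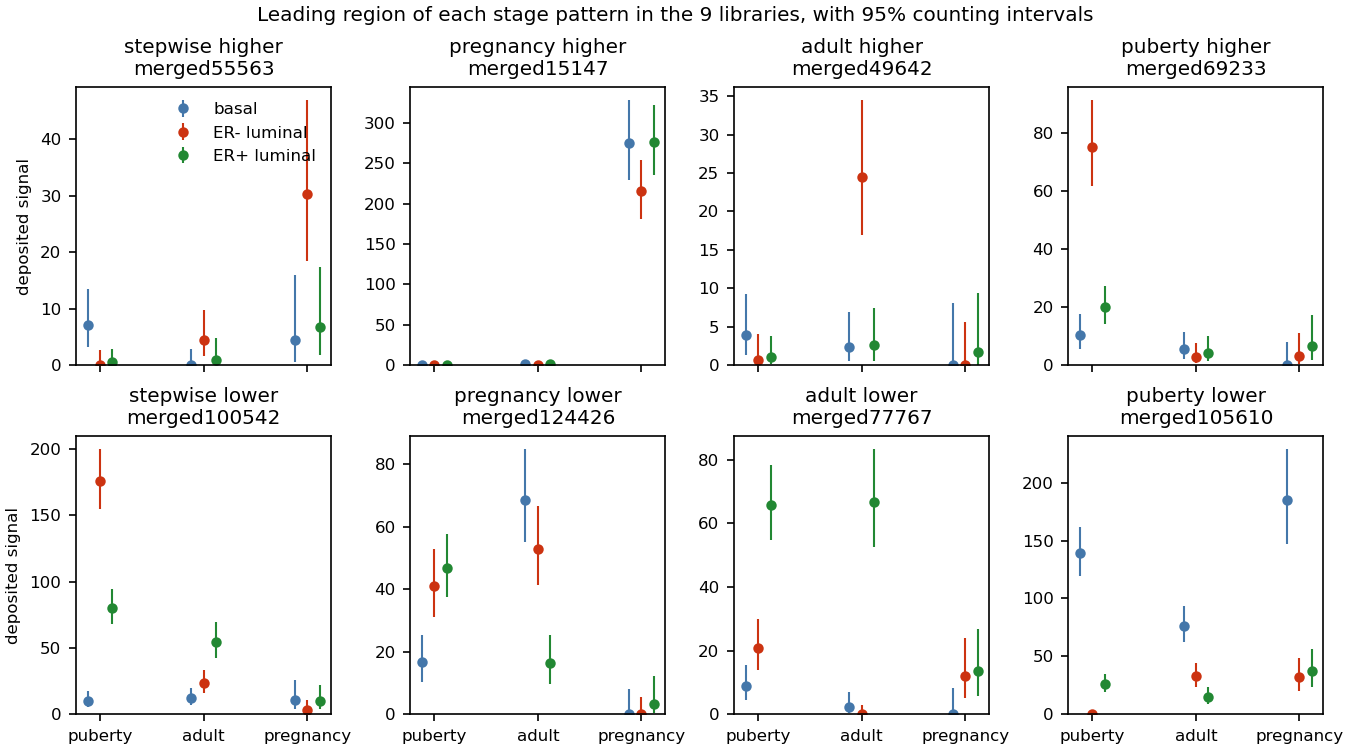
Deposited signal (vertical axis, scaled per panel) of the leading region of each pattern at the 3 stages (horizontal axis), 1 library per point, with exact 95% counting intervals as bars. Region merged15147 was high in all 3 pregnancy libraries, from 215 to 276.

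Pregnancy set apart 1223 regions with a higher signal, nearly all of them dim. Their medians were 0.717, 0.743 and 10.6 in the puberty, adult and pregnancy libraries, which is 1, 1 and 7 reads. Of these regions 93.3% lay under the median mean signal. The pattern recurred in ER+ luminal cells for 194 (15.9% of this list and 2.94% of theirs), where 5.28% of all regions had it, and in basal cells for 52 (4.25% and 4.42%), where 0.943% had it. In 288 (23.5%) neither other cell type was 2-fold higher in pregnancy than at either earlier stage, a condition that 51.4% of all regions met. Where the ER- luminal pregnancy library was apart, the other pregnancy libraries were thus more often higher than over all regions. The regions compared were not matched for signal, and the class is far dimmer than all regions.

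Region merged15147 led the pregnancy-higher class. It had no read at puberty or in adults and a signal of 215 from 142 reads in pregnancy. If 0 reads are taken as 3, this was 96.6-fold above the adult and 100.1-fold above the puberty library. The counting intervals of these ratios began at 77.6 and 80.4. The same region had 275 in basal and 276 in ER+ luminal cells in pregnancy, and at most 1.71 in the 4 puberty and adult libraries of those types. The signal of this region in pregnancy was thus common to the 3 cell types. Whether mice of different stages differed in their DNA there was not tested.

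The strongest pregnancy-higher region without a 2-fold difference of that direction in the other cell types, chosen after its values were seen, was smaller. It had a signal of 1.43 from 2 reads at puberty, 0.743 from 1 read in adults and 18.2 from 12 reads in pregnancy. Pregnancy was 24.5 times the adult value, with a counting interval of 3.63 to 1047. ER+ luminal cells had 25.8, 25.7 and 28.8 there and basal cells 15.0, 4.74 and 6.6. The ER- luminal value in pregnancy was below every ER+ luminal value. Its counting interval, 9.4 to 31.8, overlapped that of every ER+ luminal library.

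The 989 regions set apart as lower in pregnancy had stage medians of 16.5, 14.1 and 1.52, from 23, 19 and 1 reads. The pattern held in ER+ luminal cells for 112 (11.3% of this list, 2.51% of theirs), against 3.57% of all regions. In basal cells 41 (4.15% and 2.67%) had it, against 1.23%. Region merged124426 led, with 40.9 from 57 reads at puberty, 52.7 from 71 reads in adults and no read in pregnancy. If 0 reads are taken as 3, it was 11.6-fold lower in pregnancy than in adults and 8.98-fold lower than at puberty. The counting intervals of these ratios began at 9.18 and 7.07. The basal library in pregnancy also had no read there, after 16.6 and 68.7, and ER+ luminal cells had 46.8, 16.2 and 3.39. It was thus nearly closed in all 3 pregnancy libraries. Over the whole class, 350 regions (35.4%) had no 2-fold difference of that direction in either other cell type at either comparison, which 59.1% of all regions met. Signal was not matched here either, and 63.7% of the class lay under the median mean signal.

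A peak in adults was found in 98 regions. Their medians were 0.717, 7.8 and 0 in the puberty, adult and pregnancy libraries. The median counts were 1, 10.5 and 0 reads. Region merged49642 led it, with 0.717 from 1 read, 24.5 from 33 reads and 0 reads. The adult value was 34.2 times the puberty value, with a counting interval of 5.72 to 1391. It was 5.39-fold above pregnancy if 0 reads are taken as 3, with a counting interval from 4.14 upwards. The 6 libraries of the other cell types had 0 to 3.96 there. Of the 98 regions 3 (3.06%) had the pattern in basal cells, against 0.191% of all regions, and 1 (1.02%) in ER+ luminal cells, against 0.288%. In 44 (44.9%) neither other cell type was 2-fold higher in adults than at either other stage, which 53.8% of all regions met.

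A dip in adults was found in 619 regions, many of which were more open in ER+ luminal cells. Their ER- luminal medians were 8.6, 0.743 and 7.58, from 12, 1 and 5 reads. In ER+ luminal cells, which did not enter the choice, they had medians of 23.1, 20.5 and 13.6, against 15.2, 18.0 and 17.0 over all regions. At puberty 289 (46.7%) were at least 4-fold higher in ER+ luminal than in basal cells, against 13.9% of all regions. The same pattern was found for 8 (1.29%) in ER+ luminal cells, against 0.411% of all regions, and for 16 (2.58%) in basal cells, against 1.09%. In 326 (52.7%) neither other cell type was 2-fold lower in adults than at either other stage, which 57.2% of all regions met.

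Region merged77767 led the adult-lower class. It had 20.8 from 29 reads at puberty, no read in adults and 12.1 from 8 reads in pregnancy. If 0 reads are taken as 3, puberty was 9.33-fold and pregnancy 5.44-fold above adults. The counting intervals of these ratios began at 7.11 and 3.49. ER+ luminal cells had 65.7, 66.7 and 13.6 in the same order, and basal cells 8.71, 2.37 and 0. The ER- luminal values lay below the ER+ luminal ones at every stage, though in pregnancy both had 8 reads and their counting intervals overlapped.

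Puberty was set apart by low signal in 1727 regions. Their medians were 0.717, 9.66 and 12.1, from 1, 13 and 8 reads. In basal cells they had 8.71, 8.68 and 13.2 and in ER+ luminal cells 2.1, 3.42 and 10.2. At puberty 720 (41.7%) were at least 4-fold higher in basal than in ER+ luminal cells, against 15.5% of all regions. The pattern was shared with 43 regions (2.49%) in ER+ luminal cells, against 0.823% of all regions, and with 28 (1.62%) in basal cells, against 0.61%. In 314 (18.2%) neither other cell type was 2-fold lower at puberty than at either later stage, which 53.7% of all regions met. Region merged105610 led, with no read at puberty, 32.7 from 44 reads in adults and 31.9 from 21 reads in pregnancy. Both later values were higher than at puberty, by 15.2-fold and 14.8-fold if 0 reads are taken as 3. The counting intervals of these ratios began at 11.8 and 11.0. Basal cells had 139, 76.6 and 185 there and ER+ luminal cells 26.3, 14.5 and 37.3, so the ER- luminal puberty library was the lowest of the 9.

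High signal at puberty alone was found in 208 regions, with medians of 13.6, 1.49 and 1.52. In 82 (39.4%) pubertal ER+ luminal cells were at least 4-fold above basal cells, against 13.9% of all regions, and ER+ luminal medians were 13.9, 13.7 and 9.32. Of the 208, 4 (1.92%) had the pattern in ER+ luminal cells and 3 (1.44%) in basal cells, where 0.1% and 0.211% of all regions had it. In 57 (27.4%) neither other cell type was 2-fold higher at puberty than at either later stage, which 58.7% of all regions met. Region merged69233 led, with 75.3 from 105 reads at puberty, 2.97 from 4 reads in adults and 3.03 from 2 reads in pregnancy. The puberty value was 25.3 times the adult value (counting interval 9.61 to 94.7) and 24.8 times the pregnancy value (6.7 to 208). ER+ luminal cells had 20.0, 4.28 and 6.78 there and basal cells 10.3, 5.52 and 0. The puberty value was thus the highest in every cell type, at a lower level in these than in ER- luminal cells.

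Stage patterns of ER- luminal cells were then followed in lists of regions chosen in the other cell types. Regions at least 4-fold higher in ER+ luminal than in basal cells in both the puberty and the adult libraries numbered 11020, and no ER- luminal value entered that choice. Their ER- luminal medians at the 3 stages were 10.8, 5.94 and 9.1, a dip in adults. From puberty to adult 663 of them (6.02%) were at least 4-fold lower and 66 (0.599%) higher, against 1.35% and 2.34% of all regions. From adult to pregnancy 751 (6.81%) were higher, against 3.49%, and 162 (1.47%) lower, near the 1.54% of all regions. The 13848 regions with the opposite difference, basal over ER+ luminal, had ER- luminal medians of 7.17, 9.66 and 12.1. From puberty to pregnancy 2034 of these (14.7%) were at least 4-fold higher and 177 (1.28%) lower, against 6.57% and 2.69% of all regions. The 11020 ER+ luminal regions held 3.62%, 2.89% and 3.26% of the ER- luminal signal at the 3 stages, and the 13848 basal regions 4.1%, 5.46% and 5.86%. Values of regions open in the other sorted cell types thus moved with stage in the ER- luminal libraries. This was not limited to them. In ER+ luminal cells the 11020 regions had medians of 55.7, 57.3 and 20.3, and the 13848 regions 2.1, 2.57 and 11.9. The puberty and adult values among these chose the lists, and the pregnancy values did not. The lists were not matched for signal with all regions. The part of mixed cells in these values was not tested.

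Over the 8 patterns together, 636 of the 7348 regions (8.66%) had the same pattern in ER+ luminal and 171 (2.33%) in basal cells. Among the 1625 patterned regions at or above the median mean signal the shares were 12.4% and 1.91%. Any of the 8 patterns, not only the same one, was present in 14.0% of all regions in ER+ luminal and 5.38% in basal cells. At or above the median mean signal it was present in 10.6% and 1.53%. The cell types thus have unlike backgrounds. These any-pattern shares are not the background of the same-pattern shares, which is given for each pattern above. For each of the 8 patterns the same-pattern share exceeded that background in both cell types, with few regions in some classes. Neither these shares nor the shares without a 2-fold difference were matched for signal. Across all regions, stage changes of ER- luminal cells were weakly related to those of the other cell types, which share no library with them. For puberty to adult the Pearson r of log2 changes was 0.0667 with basal and 0.189 with ER+ luminal cells. It was 0.218 and 0.0891 for adult to pregnancy, and 0.188 and 0.374 for puberty to pregnancy. At or above the median mean signal the last pair was 0.259 and 0.494. These are descriptions across 124860 or 62430 regions of single libraries.

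Whether a stage change of ER- luminal cells differed from the mean change of the other cell types was tested with limma over the 9 libraries. Basal and ER+ luminal cells entered with additive cell type and stage effects, so the error is the disagreement of their stage changes, with 2 residual degrees of freedom. No region (0%) passed a Benjamini-Hochberg adjusted p of 0.05 for adult against puberty, pregnancy against adult or pregnancy against puberty. An unadjusted p under 0.05 was reached by 1257, 3406 and 2971 regions. The edgeR quasi-likelihood test on recovered reads also called 0, with 1764, 3132 and 2895 regions under an unadjusted p of 0.05. No stage change is therefore called particular to ER- luminal cells.

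The count depended on the pregnancy libraries of the other cell types. Without the ER+ luminal pregnancy library limma called 19 regions (0.0152%) for adult against puberty, 430 (0.344%) for pregnancy against adult and 202 (0.162%) for pregnancy against puberty. Of the 430, 423 were higher, with a median log2 difference of 1.19. In those 423 the ER- luminal medians were 409 in adults and 431 in pregnancy, while basal cells went from 507 to 240. Without the basal pregnancy library 26 (0.0208%), 1866 (1.49%) and 339 (0.272%) regions were called. Of the 1866, 1261 were higher, where ER+ luminal medians were 115 in adults and 17.0 in pregnancy and ER- luminal medians 6.69 and 16.7. These fits keep 1 residual degree of freedom, which comes only from the puberty and adult libraries of basal and ER+ luminal cells. Their error therefore holds no spread of a pregnancy change. Leaving out any other basal or ER+ luminal library gave 0 to 5 calls.

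Low counts shaped the patterns. In the dimmest 31215 regions, with a mean signal up to 9.32 and median reads of 5, 5 and 4 in the puberty, adult and pregnancy libraries, 11.3% had a pattern. In the brightest 31215, with medians of 143, 129 and 55 reads, 1.34% had one. The shares between were 7% and 3.87%. Stepwise higher regions went from 2.86% of the dimmest to 0.138% of the brightest, and pregnancy-higher regions from 2.66% to 0.0352%. Stepwise lower regions hardly varied, from 0.638% to 0.445%. Against 0 reads, 2 reads made a 4-fold difference on this scale in the pregnancy library, while 5 were needed in each of the other libraries. In 880 (72%) of the pregnancy-higher regions the highest library had at most 10 reads, against 87 (13.7%) of the stepwise lower ones. The lowest library had at most 3 reads in 67.6% to 94.9% of the regions of each class.

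**Figure D3:**
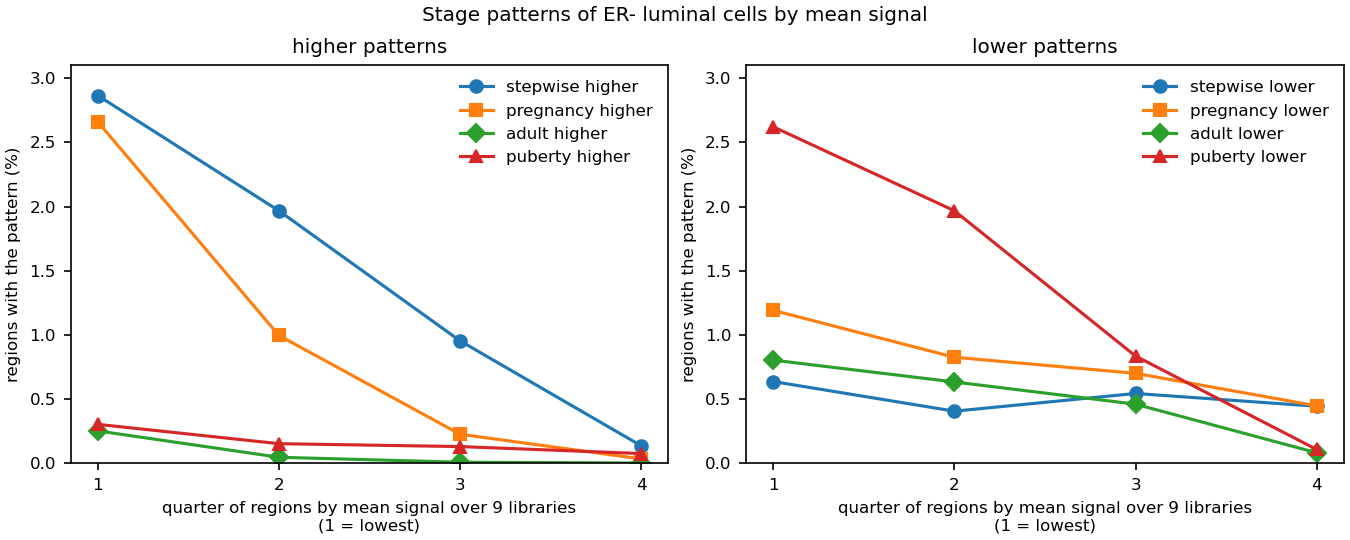
Percent of regions (vertical axis) with each ER- luminal stage pattern in 4 equal groups of regions ordered by mean signal over the 9 libraries (horizontal axis, lowest first). Stepwise higher and pregnancy-higher regions drop from 2.86% and 2.66% to 0.138% and 0.0352%, while stepwise lower regions stay between 0.407% and 0.638%.

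The share of regions whose counts set the stages apart was also taken, from the same ratios that chose the regions, so that it follows in part from the fold each class requires. All defining ratios had a counting interval beyond 1 in 957 (78.3%) of the pregnancy-higher, 681 (68.9%) of the pregnancy-lower, 1362 (78.9%) of the puberty-lower and 151 (72.6%) of the puberty-higher regions. In the stepwise classes, which require 2-fold steps, this held for 409 (22.1%) and 229 (36.1%). It held for 45 (45.9%) of the adult-higher and 417 (67.4%) of the adult-lower regions. With a pseudocount of 4 the adult-lower class held 6 regions and the pregnancy-higher class 112, of which 88 were in the class at a pseudocount of 1. When reads were thinned to the 3418164 of the pregnancy library and the pseudocount was worth 1 read, 2180 regions were stepwise higher, but 845 (45.7%) of the 1849 were among them. Similar class sizes at equal depth thus did not mean the same regions.

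**Figure D4:**
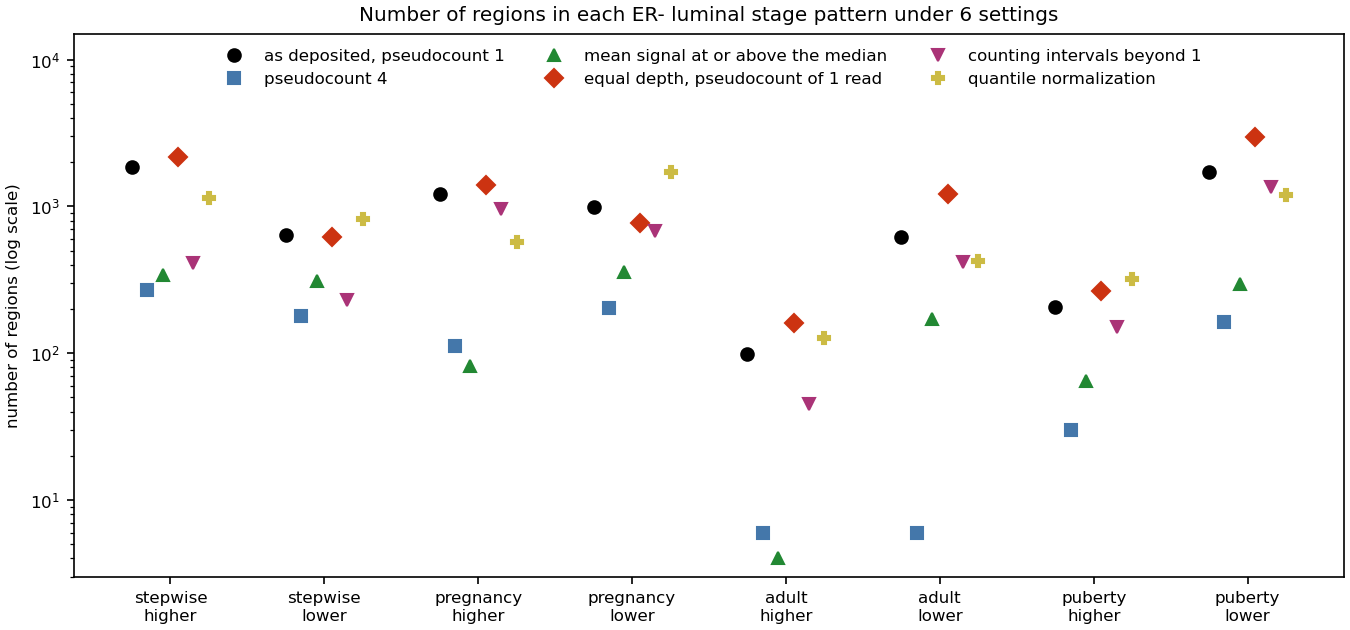
Number of regions (vertical axis, log scale) in each ER- luminal stage pattern (horizontal axis) under 6 settings, 1 symbol each. The adult-lower count ranges from 6 with a pseudocount of 4 to 1224 where reads were thinned to equal depth and 1 read was the pseudocount.

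Region numbers were compared with those next to them, although no source used here says whether they follow the genome. The next number had the same pattern for 2.7% of the stepwise higher, 2.2% of the stepwise lower, 2.53% of the pregnancy-higher and 1.52% of the pregnancy-lower regions, which were 1.48%, 0.509%, 0.979% and 0.792% of all regions. It did for 1.02% of the adult-higher (1 region), 0.969% of the adult-lower (6 regions), 0% of the puberty-higher and 2.72% of the puberty-lower regions. Those patterns were 0.0785%, 0.496%, 0.167% and 1.38% of all regions.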

How the data were processed

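ATAC-seq libraries of sorted mouse mammary cells were read from 1 table. Per the submitters' processing notes, reads were handled with Bowtie2 (2.2.6), MACS2 (2.1.0.20151222), Picard and SAMtools on build GRCm38 (mm10). No source used here states a Tn5 shift or how peaks were merged. The deposited signal is not a raw count: 100% of values per library were whole multiples of 1 step (tolerance 0.02 reads), and the median ratio to the geometric mean was 1.02 in each library, so signals were compared as deposited. Reads were recovered by dividing by the step. Patterns were classed on log2(signal + 1) with no filter, using Python 3.11.15 and scipy 1.17.1. Counting intervals of ratios are exact (Clopper-Pearson, 95%). The test used limma 3.58.1 in R 4.3.3 with a variance trend and Benjamini-Hochberg adjustment over 124860 regions. It was also run on simulated data, with the outcome not reported here, and was repeated with edgeR 4.0.16. For each pattern the named region has an ER- luminal value at or above 17.9 and the largest smaller defining log2 difference. The planned naming of regions called by the test gave none. The patterns and lists were chosen with earlier results of these data known. Alternatives were other pseudocounts, folds, scalings, equal depth (1 random draw), a filter on mean signal and left-out libraries.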

Additional observations from a re-analysis of the deposited data

Results flagged for a closer look

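In 2 classes ER- luminal cells and another cell type had medians of opposite sign from adult to pregnancy. The differences were not tested, each median comes from 1 library per stage, and ER- luminal values chose the regions. In the adult-lower regions the ER- luminal median was 2.47 on the log2 scale and the ER+ luminal one -0.83, a difference of 3.30. In the adult-higher regions the ER- luminal median was -2.45 and the basal one 0.26, which differ by -2.70.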

How the results depend on the processing

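The number of regions in each pattern was sensitive to nearly every setting. In the order stepwise higher, stepwise lower, pregnancy higher, pregnancy lower, adult higher, adult lower, puberty higher and puberty lower, the counts as reported were 1849, 635, 1223, 989, 98, 619, 208 and 1727. They were 2902, 984, 1520, 1820, 285, 1373, 402 and 3311 with a pseudocount of 0.25 and 268, 178, 112, 204, 6, 6, 30 and 162 with one of 4. At or above the median mean signal they were 341, 309, 82, 359, 4, 170, 65 and 295. An 8-fold change gave 280, 59, 89, 147, 6, 35, 13 and 161 and a 3-fold change 3238, 1345, 2782, 2509, 371, 1464, 701 and 3590. Quantile normalization gave 1139, 825, 576, 1706, 127, 422, 321 and 1202, and total scaling 2464, 366, 1393, 948, 132, 534, 136 and 2138. Equal depth gave 3032, 694, 2006, 1093, 318, 2062, 421 and 4418, or 2180, 623, 1392, 767, 161, 1224, 266 and 2959 with a pseudocount of 1 read. Counting intervals beyond 1, chosen after seeing the data, kept 409, 229, 957, 681, 45, 417, 151 and 1362.

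The share of patterned regions with the same pattern in basal cells was 2.33%, 3.83% with a pseudocount of 4 and 3.58% at equal depth. In ER+ luminal cells it was 8.66%, and 7.55% to 12.4% under the 3 alternatives run. The limma test called 0 regions for each of the 3 contrasts with either other pseudocount, without a variance trend, with quantile normalization, at equal depth and with the filter on mean signal, as did edgeR. Without 1 basal or ER+ luminal library at a time it called 1 to 26 regions for adult against puberty, 1 to 1866 for pregnancy against adult and 0 to 339 for pregnancy against puberty. No ER- luminal library can be left out of a contrast that it defines. No paired analysis was possible because each cell type and stage has 1 library, so the shared number 1 pairs nothing. Depth limits pregnancy most, where 51.6% of regions had at most 10 reads, against 34% at puberty and 33.5% in adults.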

Other observations

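The brightest region of each ER- luminal library was the same one, merged51739, singled out after its values were seen. Its signal was 31094 at puberty, 23783 in adults and 60110 in pregnancy, from 43375, 32016 and 39631 reads. The pregnancy value was 2.53 times the adult value, with a counting interval of 2.49 to 2.57. In ER+ luminal cells it had 13173, 17874 and 44989, also highest in pregnancy, and in basal cells 33337, 28601 and 21731, lowest in pregnancy.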
